A study of Mus musculus with 2 samples.

Results

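The genes described here carry glucose into the heart cell, break it down to pyruvate and lactate, move lactate across the membrane, and store or release glycogen. The 40 members were taken by symbol from a list of isozymes, carriers and regulators of 18 steps, and all 40 were found among the 43346 Ensembl genes of the deposited tables. The tissue came from 1 adult mouse of strain C57BL/6J, a female at the age of 10 weeks, and the labels name no allele or treatment for its heart. RNA selected for poly(A) tails was sequenced in 2 libraries, technical replicate 2, made in 2015, and the older technical replicate 1. The libraries share 1 animal, so a mean ± SD over them (n = 2 libraries) covers technical spread only and nothing here extends to other mice.

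In heart muscle, glucose enters mainly through the insulin-regulated carrier GLUT4, is trapped by hexokinase and is then either stored as glycogen or split to pyruvate. Most of these steps have several isozymes from separate genes, and muscle, liver and brain are known for different choices among them. The adult heart burns mostly fatty acids but takes up both glucose and lactate, and its lactate dehydrogenase is known for being rich in the B subunit.

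Replicate 2 held 19685821 expected counts and replicate 1 held 22775991, and 12654724 of these in replicate 2 and 5028154 in replicate 1 came from genes other than the 37 mitochondrial genes and their 11 close nuclear copies. These other genes made up 39.1% of TPM (the transcript abundance per gene, corrected for length and scaled to a fixed sum) in replicate 2 and 7.22% in replicate 1. Levels are therefore given as nuclear TPM, which is TPM scaled again after those genes and copies were set aside. The 6 cardiomyocyte markers were all present at 1 TPM or more in each library and summed to 28849 TPM (replicate 2) and 1026 TPM (replicate 1). On the nuclear TPM scale these markers summed to 73790 in replicate 2 and 14208 in replicate 1. In a bulk tissue, fewer cells of a type and less RNA per cell cannot be told apart. Both libraries are of 1 animal, so the gap between them is not read as either.

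Taken over the whole pathway, 34 members had at least 1 TPM in replicate 2, 25 did so in replicate 1 and 25 in both. On the nuclear TPM scale, 34 members reached 1 in both libraries. Any count at all was found for 39 members in replicate 2 and 36 in replicate 1. The TPM of the 40 genes added up to 7903 in replicate 2, against 378 in replicate 1. That was 2.02% of all nuclear TPM in replicate 2, against 0.523% in replicate 1, and the libraries averaged 1.27% ± 1.06 (SD, n = 2 libraries), with a 3.86-fold difference. Among the 100 highest nuclear genes there were 4 members in replicate 2 and 1 in replicate 1, and among the highest 1000 there were 18 in replicate 2 and 9 in replicate 1.

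The members that led also differed. In replicate 2 the highest were Gapdh with 4011 nuclear TPM, Aldoa with 3216, Ldhb with 2549 and Eno3 with 1551. In replicate 1 the highest was Ugp2, which makes the UDP-glucose used for glycogen, with 1401 nuclear TPM, followed by Ldhb with 483, Pygm with 438 and Gyg with 427. The places of Ldhb and Pygm in replicate 1 rested on short transcript models: with the gene lengths of replicate 2 in both libraries, an alternative chosen after seeing the data, Ugp2 (1556) was followed there by Gyg (455), Slc16a1 (345), Pgk1 (307) and Ldha (303), with Ldhb sixth at 290. Over the 18 steps, the summed levels in the libraries had a Spearman correlation of 0.207, a description over steps of 1 animal. L-lactate dehydrogenase ranked second in both libraries, while glycogen synthesis ranked 10 in replicate 2 and first in replicate 1.

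**Figure D1:**
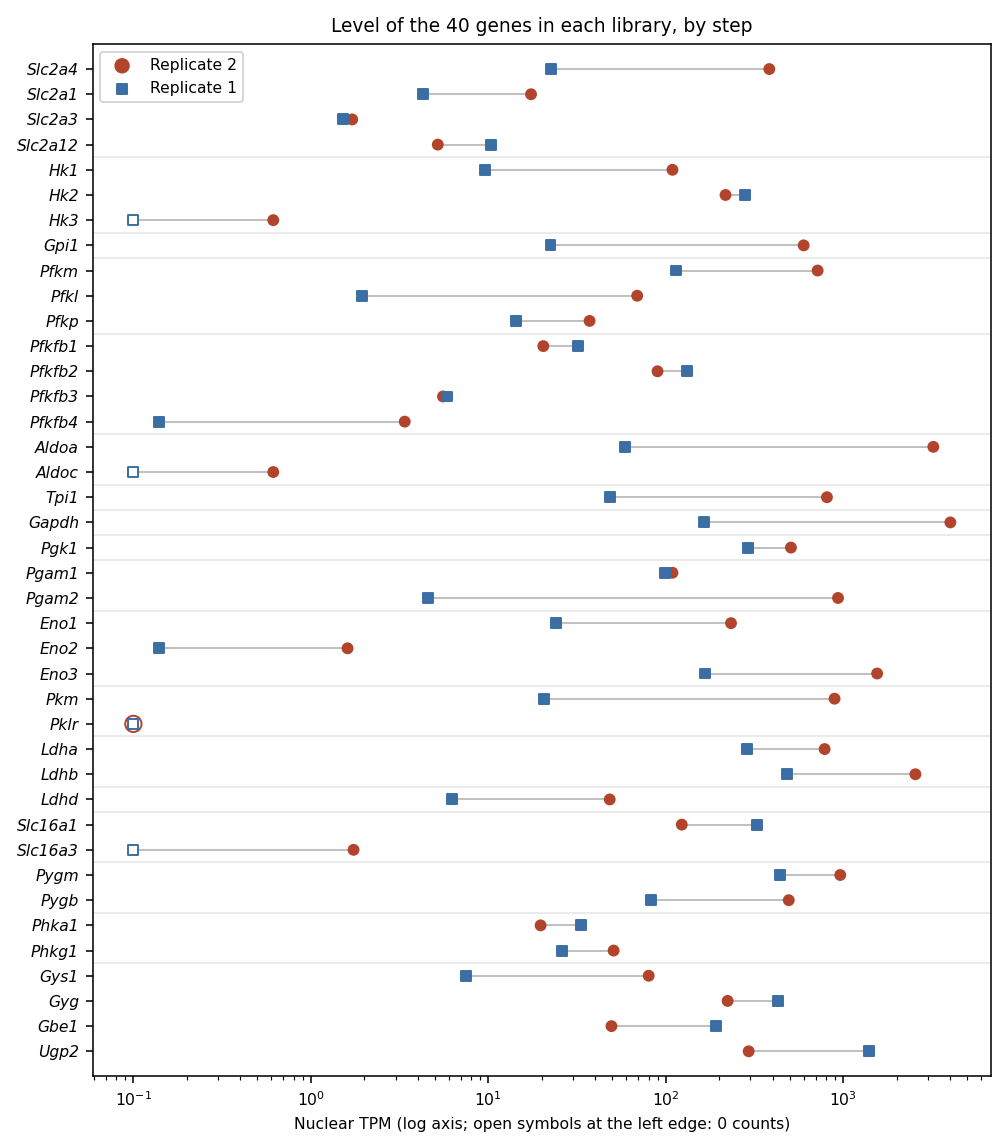
Nuclear TPM of each of the 40 genes (log axis) in replicate 2 (circles) and replicate 1 (squares), in the order of the steps, with grey lines joining the libraries of 1 gene. Open symbols at the left edge have 0 counts. Most circles lie to the right of their square, and those of Slc16a1, Gyg, Gbe1 and Ugp2 are among the few that lie to the left.

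Glucose uptake rested on Slc2a4, the gene of GLUT4, in both libraries. Slc2a4 (chr11:69942539-69948188, minus strand) had 383 nuclear TPM in replicate 2 and 22.6 in replicate 1. This was 94.0% of the summed TPM of the 4 carriers in replicate 2, against 58.2% in replicate 1 (mean 76.1% ± 25.3, SD, n = 2 libraries). By counts the shares were 92.6% of 6908 in replicate 2 (95% Wilson interval 92.0 to 93.2) and 48.9% of 264 in replicate 1 (42.9 to 54.9). Such intervals cover counting error only, since sequencing reads are not independent molecules. Replicate 1 was also brought to the GC profile of replicate 2, by removing the trend of the library ratio with GC content. The Slc2a4 share there was then 86.1%, against 94.0% in replicate 2.

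The other carriers were low. Slc2a1, the basal carrier GLUT1, had 17.4 nuclear TPM in replicate 2 and 4.29 in replicate 1. Slc2a12, a further carrier found in heart and fat, had 5.19 nuclear TPM in replicate 2 and 10.4 in replicate 1. It made up 1.27% of the carriers in replicate 2 and 26.8% in replicate 1, where it ranked second. Slc2a12 has 46.7% GC and Slc2a1 has 54.0%, and their order in replicate 1 at the GC profile of replicate 2 was not tested. Slc2a3, the neuronal type GLUT3, had 1.71 nuclear TPM in replicate 2 (36 counts) and 1.52 in replicate 1 (14 counts). Slc2a4-201, which codes for 509 amino acids, held 88.72% of the gene's abundance in replicate 2 and 81.55% in replicate 1, and a transcript without a coding sequence, Slc2a4-207, held 3.09% in replicate 2, against 17.23% in replicate 1.

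Hexokinase, which phosphorylates glucose, was led by Hk2, the insulin-responsive muscle isozyme. Hk2 had 217 nuclear TPM in replicate 2 and 281 in replicate 1, and Hk1, the isozyme of most tissues, had 109 in replicate 2 and 9.56 in replicate 1. The Hk2 share of the step was 66.4% in replicate 2 and 96.7% in replicate 1, and its count shares were 64.5% of 8579 in replicate 2 and 92.6% of 1158 in replicate 1. Hk3, the isozyme of white blood cells, had 13 counts in replicate 2 and 0 in replicate 1, which allows up to 3 counts.

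The order of Hk2 and Hk1 was thus the same in both libraries, while the margin was not. When replicate 1 was brought to the GC profile of replicate 2, by removing the trend of the library ratio with GC content, the Hk2 share there was 77.4%. The Hk2 value also depended on a short model: Hk2-202, a 594-nt transcript without a coding sequence, was given 39.61% of Hk2 abundance in replicate 2 and 75.11% in replicate 1. The full-length Hk2-201 of 917 codons had 5261.27 counts in replicate 2 and 870.99 in replicate 1. The short model had 263.5 in replicate 2 and 201.01 in replicate 1. Hk2-202 has 44.8% GC and Hk2-201 has 51.9%. The share of 77.4% used 48.6% for Hk2, a mean over its models weighted by TPM. The share with the GC content of Hk2-201 alone was not tested. With the replicate 2 lengths in both libraries, Hk2 had 144 nuclear TPM in replicate 1, so its higher level there was not kept. In scaled counts Hk2 was 1.86-fold higher in replicate 2. Hk1 was led by Hk1-202, with 63.44% in replicate 2 and 92.66% in replicate 1. Its posterior mean shares, which average over the uncertainty of assigning reads, were 58.8% in replicate 2 and 22.53% in replicate 1, so the higher share in replicate 1 was not kept. Hk1-202 has a coding sequence of 918 codons. In replicate 2, Hk1-201 and Hk1-203, which share another coding sequence, of 945 codons, held 30.28% together, and in replicate 1 they had no count.

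Phosphofructokinase, the committing step of glycolysis, was mostly the muscle isozyme in both libraries. Pfkm (chr15:98092589-98132451, plus strand) had 717 nuclear TPM in replicate 2 and 114 in replicate 1, and its share of the 3 genes was 87.1% in replicate 2, against 87.5% in replicate 1 (mean 87.3% ± 0.268, SD, n = 2 libraries). Second place changed by TPM. Pfkl, the liver isozyme, had 69.0 nuclear TPM in replicate 2 and 1.94 in replicate 1, while Pfkp, the platelet isozyme, had 37.2 in replicate 2 and 14.4 in replicate 1. The replicate 1 values rest on 16 counts for Pfkl and 84 for Pfkp. Pfkl has 56.9% GC and Pfkp has 49.6%, and their order in replicate 1 at the GC profile of replicate 2 was not tested.

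Pfkm came from Pfkm-201 in replicate 2 with 92.5% and from Pfkm-202 in replicate 1 with 100%. Both hold the same coding sequence of 780 codons, so the annotated protein is the same. For Pfkp the coding sequences were not the same. Pfkp-201 and Pfkp-207 each have 784 codons and differ in 1 coding exon of 153 nt, which lies at chr13:6593101-6593253 in Pfkp-201 and at chr13:6597859-6598011 in Pfkp-207 (minus strand). Pfkp-201 had 45.37% of the gene's abundance in replicate 2 and 0 in replicate 1, and Pfkp-207 had 37.89% in replicate 2, against 46.41% in replicate 1. These shares stood on 317.5 and 421.31 counts in replicate 2, and on 0 and 61.68 counts in replicate 1. The posterior mean shares of Pfkp-207 were 33.41% in replicate 2 and 16.81% in replicate 1. Both exons are shown, 5′ to 3′ from release M21 transcripts of GRCm38 (mm10), because they are the bases by which the models of Pfkp differ. Capitals mark the 63 positions at which they differ, and 90 positions (58.8%) are identical.
Pfkp-207: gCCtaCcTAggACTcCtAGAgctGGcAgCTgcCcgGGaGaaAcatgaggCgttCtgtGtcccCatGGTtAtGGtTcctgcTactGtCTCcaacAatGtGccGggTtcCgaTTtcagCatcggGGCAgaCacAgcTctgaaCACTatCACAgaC
Pfkp-201: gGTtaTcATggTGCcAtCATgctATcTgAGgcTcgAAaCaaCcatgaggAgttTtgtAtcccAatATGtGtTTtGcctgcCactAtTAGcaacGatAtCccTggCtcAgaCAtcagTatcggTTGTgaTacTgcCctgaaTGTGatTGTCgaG

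The PFKFB enzymes make and break fructose 2,6-bisphosphate, the main activator of phosphofructokinase. Pfkfb2, the heart isozyme, had 89.8 nuclear TPM in replicate 2 and 131 in replicate 1, which among the 4 genes was 75.4% in replicate 2 and 77.6% in replicate 1 (mean 76.5% ± 1.56, SD, n = 2 libraries). Pfkfb1, the liver and muscle isozyme, came second with 20.4 nuclear TPM in replicate 2, against 32.0 in replicate 1. Pfkfb3, the inducible isozyme, had 5.55 in replicate 2 and 5.82 in replicate 1, and Pfkfb4, the testis isozyme, had 3.38 in replicate 2, against 0.139 in replicate 1, where the replicate 1 value rests on 1 count. By TPM the order of the 4 genes was the same in both libraries. By counts Pfkfb1 (204) was above Pfkfb3 (177) in replicate 2 and below it in replicate 1 (54 against 63). The length used for Pfkfb1 was 1.83 times greater in replicate 2. With the replicate 2 lengths in both libraries, Pfkfb1 had 18.6 nuclear TPM in replicate 1, so its higher level there was not kept. Within Pfkfb2, 3 models with 1 coding sequence of 518 codons, 1 of them annotated for nonsense-mediated decay, held 71.06% in replicate 2 and 61.87% in replicate 1. The single model with the highest share in replicate 1 was Pfkfb2-209, a retained intron, which held 16.58% in replicate 2 and 33.91% in replicate 1.

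Gpi1, the glucose-6-phosphate isomerase, had 598 nuclear TPM in replicate 2 and 22.4 in replicate 1. Its main transcript Gpi1-201 held 95.91% in replicate 2 and 81.9% in replicate 1. Aldolase, which splits the sugar, was Aldoa alone to within 7 counts of Aldoc in replicate 2 and 0 in replicate 1. Aldoa (chr7:126795234-126800751, minus strand) had 3216 nuclear TPM in replicate 2 and 58.6 in replicate 1, from 30869 counts in replicate 2 and 176 in replicate 1. Aldoa-201 led in replicate 2 with 89.14% and Aldoa-203 in replicate 1 with 77.95%, and both hold the same 364 codons. Tpi1, triose phosphate isomerase, had 809 nuclear TPM in replicate 2 and 48.3 in replicate 1, nearly all from Tpi1-205 with 99.35% in replicate 2, against 97.05% in replicate 1.

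Gapdh, which oxidises glyceraldehyde phosphate and is often used as a reference gene, had the largest level of the pathway in replicate 2. It had 4011 nuclear TPM in replicate 2 and 165 in replicate 1, from 34480 counts in replicate 2 and 176 in replicate 1. The log2 ratio was 6.14, a 70.5-fold difference in scaled counts (95% counting interval 61.0 to 82.5). Gapdh also has 86 near copies elsewhere in the genome, which held 1470.8 counts in replicate 2 and 20.2 in replicate 1, so reads may be split between them and the gene. The next enzyme, Pgk1, had 507 nuclear TPM in replicate 2, against 289 in replicate 1, all from Pgk1-201, and 2 near copies of it held 266.8 counts in replicate 2 and 39.5 in replicate 1.

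By TPM, phosphoglycerate mutase was the 1 step, of 11 with alternative genes for 1 role, at which the leading gene was not the same. By counts there were 3 such steps, with lactate dehydrogenase and glycogen phosphorylase added. Pgam2, the muscle isozyme (chr11:5801640-5803733, minus strand), had 934 nuclear TPM in replicate 2 and 4.57 in replicate 1. Pgam1, the isozyme of most tissues (chr19:41911923-41918660, plus strand), had 109 in replicate 2, against 99.5 in replicate 1. Thus Pgam2 made up 89.5% of the step in replicate 2 and 4.39% in replicate 1. Pgam2 had 4600 counts in replicate 2 and 7 in replicate 1, against 1357.7 in replicate 2 and 383 in replicate 1 for Pgam1. Each gene has 1 transcript model, and the length used for it was almost the same in both libraries (ratio 0.997 for Pgam2), so no choice among models enters these values. The Pgam2 count ratio was the highest among the members, with a log2 value of 7.79 and a counting interval of 115-fold to 590-fold around 221-fold. Setting replicate 1 to the GC profile of replicate 2 left Pgam1 with 10.5% of the step in replicate 2 and 84.3% in replicate 1. The 1 near copy of Pgam1 had 46.3 counts in replicate 2 and 0 in replicate 1.

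Enolase kept its makeup closely. Eno3, the muscle isozyme, had 1551 nuclear TPM in replicate 2 and 166 in replicate 1, and its share was 86.9% in replicate 2 and 87.3% in replicate 1 (mean 87.1% ± 0.293, SD, n = 2 libraries). Eno1, the isozyme of most tissues, made up 13.0% in replicate 2, against 12.6% in replicate 1. Eno2, the neuronal isozyme, had 26 counts in replicate 2 and 1 in replicate 1. The models chosen within Eno3 were not as stable: 3 models with the full 434 codons held 94.03% in replicate 2 and 33.68% in replicate 1, where the 670-nt Eno3-205 took 66.32%. In counts, those full-length models still had 176.69 of 301 in replicate 1. With the replicate 2 lengths in both libraries, Eno3 had 110 nuclear TPM in replicate 1.

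Pyruvate kinase, the last step of glycolysis, came from Pkm, with 893 nuclear TPM in replicate 2 and 20.5 in replicate 1. Pklr, the liver and red cell gene, had 0 counts in both. The Pkm gene has a pair of mutually exclusive exons of 167 nt. The upstream exon gives PKM1, the form of adult muscle and brain, and the downstream one gives PKM2, the form of many dividing cells. Pkm-202, with the upstream exon (chr9:59675029-59675195, plus strand), held 95.76% of Pkm abundance in replicate 2 and 100% in replicate 1. Pkm-201, with the downstream exon (chr9:59675568-59675734), held 4.24% in replicate 2 and 0 in replicate 1. Pkm-202 had 14501.28 counts in replicate 2, against 108 in replicate 1. Pkm-201 had 642.72 in replicate 2, against 0 in replicate 1. The posterior mean share of Pkm-202 was 95.75% in replicate 2 and 61.97% in replicate 1, so at 108 counts the exon choice in replicate 1 was poorly fixed. The exons are shown 5′ to 3′ from M21 transcripts (GRCm38, mm10), with capitals at the 64 positions where they differ, because these bases alone separate the proteins. The other 103 positions (61.7%) are identical. The Pkm-202 model has 2432 nt in the deposited tables and 2041 nt in M21, so its exon is given as M21 has it, and the sequence of the longer model was not used here.
Pkm-202: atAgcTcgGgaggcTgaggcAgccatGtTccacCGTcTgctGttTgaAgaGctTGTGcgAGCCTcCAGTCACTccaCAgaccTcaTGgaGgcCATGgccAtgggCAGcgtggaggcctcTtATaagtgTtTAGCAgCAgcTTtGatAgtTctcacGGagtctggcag
Pkm-201: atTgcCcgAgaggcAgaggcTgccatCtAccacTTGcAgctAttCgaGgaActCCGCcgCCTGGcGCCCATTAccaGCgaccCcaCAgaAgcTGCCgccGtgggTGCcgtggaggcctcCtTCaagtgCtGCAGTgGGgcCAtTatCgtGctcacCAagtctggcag

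**Figure D2:**
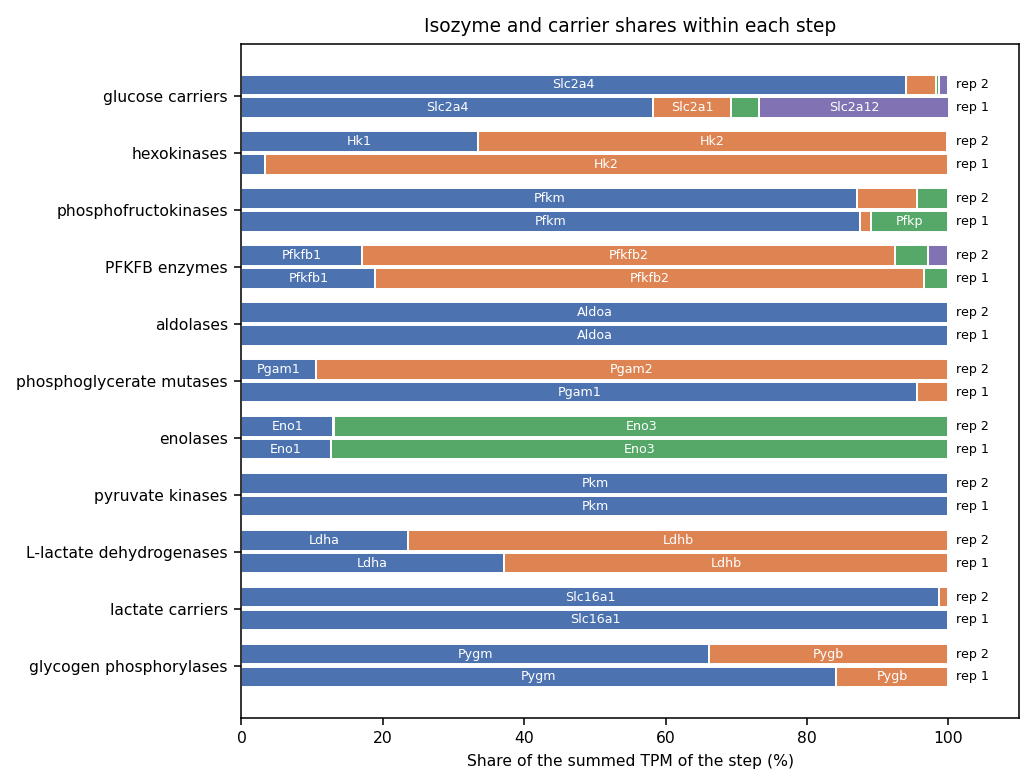
Share of the summed TPM (%) of each gene within the 11 steps that have alternative genes for 1 role (the subunits of phosphorylase kinase and the genes of glycogen synthesis do different work and are not drawn), with the replicate 2 bar above the replicate 1 bar of each step. Pfkm, Pfkfb2, Eno3, Aldoa, Pkm and Slc16a1 hold nearly the same share in both bars, and the phosphoglycerate mutase bars are nearly reversed, with Pgam2 at 89.5% in replicate 2 and 4.39% in replicate 1.

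Lactate dehydrogenase interconverts pyruvate and lactate. Ldhb, the heart-type subunit (chr6:142490249-142507957, minus strand), had 2549 nuclear TPM in replicate 2 and 483 in replicate 1. Ldha, the muscle-type subunit, had 785 in replicate 2 and 286 in replicate 1. Ldhb was thus 76.5% of the pair in replicate 2 and 62.9% in replicate 1. By counts, however, it was 72.2% of 29761 (95% Wilson interval 71.7 to 72.7) in replicate 2 and 43.3% of 1643 (40.9 to 45.7) in replicate 1. The TPM lead of Ldhb in replicate 1 rested on the short model Ldhb-202 of 685 nt, which took 0.14% of Ldhb in replicate 2 and 78.97% in replicate 1. With the length of replicate 2 used for each gene in both libraries, the Ldhb share in replicate 1 was 48.8%, and Ldha led. Ldha itself came from 1 coding sequence of 332 codons in both libraries, with 99.53% in replicate 2, against 99.29% in replicate 1.

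Ldhd, the mitochondrial D-lactate dehydrogenase, had 48.3 nuclear TPM in replicate 2 and 6.23 in replicate 1. Its 484-codon transcript had 75.13% in replicate 2 and 0 in replicate 1, where retained-intron models took all 56 counts. Znrf1 overlaps its exons on the opposite strand and had 947 counts in replicate 2, against 186 in replicate 1. The strand setting of the counting is not stated in any source used here.

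Of the 2 lactate carrier genes among the members, Slc16a1, the gene of the carrier MCT1, led in both libraries. Slc16a1 (chr3:104638668-104658462, plus strand) had 123 nuclear TPM in replicate 2 and 325 in replicate 1, from 3927 counts in replicate 2, against 3220 in replicate 1, and it was 1 of 3 members at least 2-fold lower in replicate 2. Slc16a3, the gene of MCT4, which exports lactate from glycolytic muscle, had 30 counts in replicate 2 and 0 in replicate 1. Slc16a1 was therefore 98.6% of the pair in replicate 2 and 100% in replicate 1. The pair leaves out Slc16a7, read with the companions, which had 5.99 nuclear TPM in replicate 2 and 20.6 in replicate 1.

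Glycogen breakdown uses glycogen phosphorylase, of which the muscle gene Pygm and the brain gene Pygb are both known to be used in heart. Pygm had 961 nuclear TPM in replicate 2 and 438 in replicate 1, and Pygb had 493 in replicate 2 and 82.7 in replicate 1. The Pygm share was 66.1% in replicate 2 and 84.1% in replicate 1, but the count share was 55.4% of 30699 in replicate 2 and 47.4% of 1370 in replicate 1. The effective length of Pygm, the number of start positions a fragment can have, was 3.70 times longer in replicate 2, where the full-length Pygm-201 held 85.13% against 4.61% in replicate 1, and Pygm-203, a 532-nt retained intron, took 12.23% in replicate 2 and 83.71% in replicate 1. With the replicate 2 lengths in both libraries, the Pygm share in replicate 1 was 58.6%. By TPM Pygm led in both libraries, and by counts Pygb led in replicate 1. Within Pygb, Pygb-201 held 98.53% in replicate 2 and 100% in replicate 1.

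Phosphorylase kinase switches phosphorylase on. Its alpha subunit gene of muscle, Phka1, had 19.7 nuclear TPM in replicate 2 and 33.2 in replicate 1, and its catalytic subunit gene of muscle, Phkg1, had 50.8 in replicate 2 and 25.9 in replicate 1. Within Phkg1, Phkg1-201 held 78.38% in replicate 2 and 89.76% in replicate 1. The split between the Phka1 models was nearly the same in both libraries. Phka1-201, of 1182 codons, held 92.48% in replicate 2 and 91.91% in replicate 1, from 791.2 counts in replicate 2 and 411.45 in replicate 1. Phka1-202, of 1241 codons, held 6.40% in replicate 2, against 4.69% in replicate 1 (posterior mean shares 3.22% in replicate 2 and 4.98% in replicate 1). They differ by 1 coding exon of 177 nt (59 codons) at chrX:102557096-102557272 (minus strand), which Phka1-201 lacks. In rabbit, a shorter form of this subunit, which lacks a segment of the longer one, is known from heart and slow muscle. The posterior mean shares of Phka1-201 were 87.2% in replicate 2 and 77.65% in replicate 1. The exon is shown 5′ to 3′ from release M21 (GRCm38, mm10) as the stretch that most Phka1 RNA in these libraries was estimated to lack.
Phka1-202: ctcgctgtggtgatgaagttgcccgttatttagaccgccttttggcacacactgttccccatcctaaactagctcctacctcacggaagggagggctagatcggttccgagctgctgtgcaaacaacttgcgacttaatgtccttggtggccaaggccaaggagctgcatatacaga

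The genes of glycogen synthesis together had 645 nuclear TPM in replicate 2, against 2028 in replicate 1. Ugp2 (chr11:21321138-21371201, minus strand) had 293 nuclear TPM in replicate 2, against 1401 in replicate 1, from 4668 counts in replicate 2 and 7226 in replicate 1. Gyg, glycogenin, the protein that primes the glycogen particle, had 223 in replicate 2, against 427 in replicate 1. Gbe1, the branching enzyme, had 49.4 in replicate 2 and 192 in replicate 1. Gys1, the muscle glycogen synthase, went the other way with 80.1 in replicate 2, against 7.48 in replicate 1.

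Ugp2 used a pair of models at similar levels. Ugp2-201, of 497 codons, held 56.58% in replicate 2 and 40.86% in replicate 1, and Ugp2-202, of 508 codons, held 42.34% in replicate 2 and 57.71% in replicate 1. Gyg-203, of 333 codons, held 97.99% in replicate 2, against 99.38% in replicate 1. Gys1-201, of 738 codons, held 97.37% in replicate 2 and 100% in replicate 1, with posterior mean shares of 94.38% in replicate 2 and 66.05% in replicate 1. Gbe1-201 and Gbe1-203, with different coding sequences of 702 codons each, held 52.44% and 45.73% in replicate 2, and 66.69% and 19.56% in replicate 1. Their posterior mean shares were 40.56% and 42.94% in replicate 2, and 64.12% and 19.6% in replicate 1. The lead of Gbe1-201 in replicate 2 was thus not kept.

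Across the members, 29 had at least 20 counts in each library and more than 1 transcript model. The transcript with the highest share was the same in both libraries for 16 of them, and 13 of these had at least 75% in both. For the other 13 members the leading model differed, and in 2 of those, Pfkm and Aldoa, the coding sequence was the same. In 9 of the 13 the model that led in replicate 1 was the shorter one, and in 6 it was under 800 nt. The 6 were Hk2-202, Gapdh-207, Eno1-205, Eno3-205, Ldhb-202 and Pygm-203. In replicate 1 those short models took between 41.93% (Gapdh-207, with a posterior mean share of 27.12%) and 83.71% (Pygm-203) of their gene. Gapdh-203, with the full 333 codons, held 89.41% of Gapdh in replicate 2 and 0 in replicate 1, where the 175.81 counts were spread over several models. Eno1-202, with 434 codons, held 46.9% of Eno1 in replicate 2 and 6.74% in replicate 1, and the 221-codon Eno1-205 held 42.18% in replicate 2, against 64.71% in replicate 1. Pfkfb3-220, of 500 codons, held 48.93% in replicate 2 and 94.18% in replicate 1, and Pfkfb3-206, of 520 codons, held 30.42% in replicate 2 and 0 in replicate 1. The posterior mean shares of Pfkfb3-220 were 29.97% in replicate 2 and 26.98% in replicate 1, and those of Pfkfb3-206 were 5.74% in replicate 2 and 1.67% in replicate 1, so neither gap between libraries held at that size. Pfkfb1-201, of 448 codons, held 37.35% in replicate 2, against 5.53% in replicate 1. Pooling transcripts with the same coding sequence gave 19 of 29 members with the same leader. Of the 40 members, 4 have 1 model and cannot differ.

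**Figure D3:**
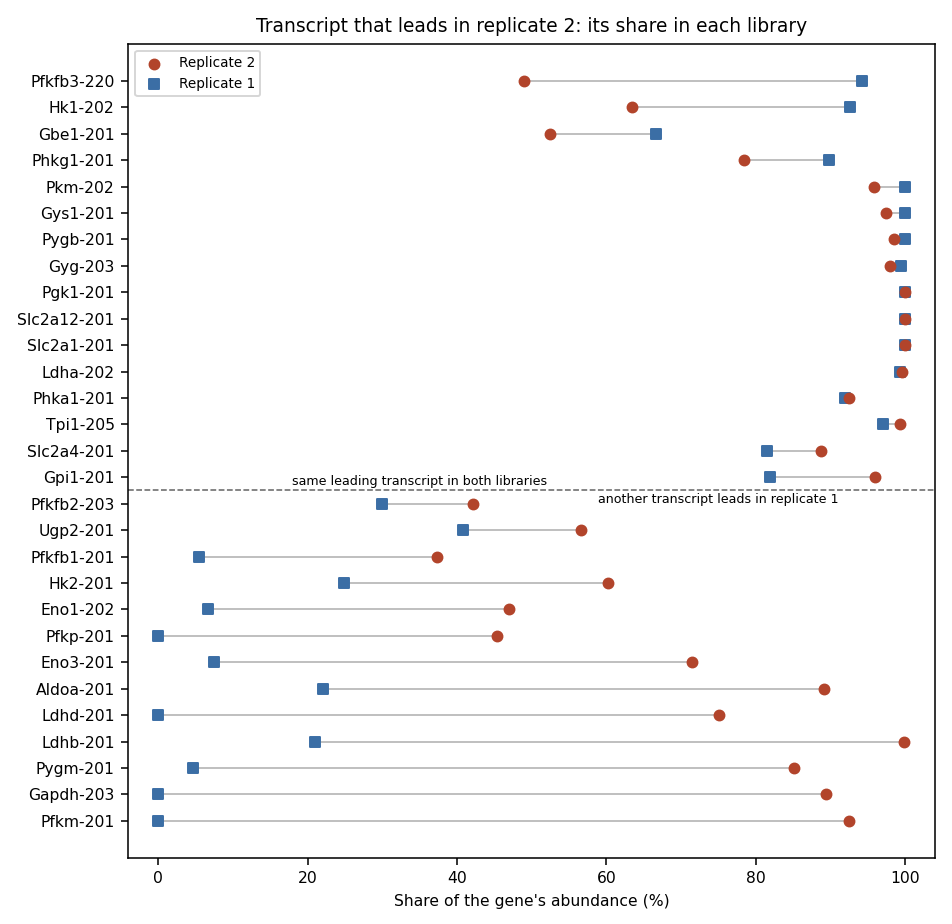
Share of the gene's abundance (%) held in replicate 2 (circles) and replicate 1 (squares) by the transcript that leads in replicate 2, for the 29 members with at least 20 counts in each library and several transcript models. Above the dashed line are the 16 members with the same leader, among them Pkm-202 and Phka1-201, and below it are the 13 in which another transcript led in replicate 1.

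The counts were also compared directly, with library sizes scaled by TMM (trimmed mean of M values, which assumes that most genes do not differ) and 0.5 counts added. With at least 20 counts over both libraries, 37 members entered, and Hk3, Aldoc and Pklr did not. In replicate 2, 25 members were at least 2-fold higher, where 39.0% of all 13182 genes were. Slc16a1, Gbe1 and Ugp2 were at least 2-fold lower, 3 members, where 27.3% of all genes were, and 9 members lay within 2-fold. The median log2 ratio (replicate 2 over replicate 1) was 2.67 over the 37 members and 0.21 over all genes. Slc16a3 entered with 0 counts in replicate 1; at the bound that 3 counts would give, at least 3.61-fold higher in replicate 2, the member median was 2.47.

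The log2 ratio of the members followed the GC content of their transcripts, as it did over all genes. The Spearman correlation between GC content and log2 ratio was 0.902 over the 37 members (Pearson 0.893) and 0.898 over all genes, a description in which the points share 2 libraries. Member GC content ran from 40.2% (Ugp2) to 58.8% (Slc16a3), with a median of 53.6% against 50.04% over all genes. The 3 members lower in replicate 2, Ugp2, Slc16a1 and Gbe1, had the lowest values, 40.2%, 42.9% and 43.8%. What set the GC dependence was not tested.

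When the trend was removed as the median ratio in 50 bins of GC content, 15 members lay at least 2-fold above it in replicate 2, where 14.7% of all genes with a GC value did, and 1 member lay at least 2-fold below it, where 13.0% did. Of the 15, 13 were among the 25 counted before. Hk2 with 1.04 and Pfkfb1 with 1.09 on the log2 scale were not, and both lay only just past 2-fold. The GC content of a gene was weighted by the TPM of its transcripts, so short models entered it. Hk2 thus had 48.6%, between Hk2-202 with 44.8% and Hk2-201 with 51.9%. Whether Hk2 and Pfkfb1 pass the limit with the GC content of full-length models alone was not tested. None of the 3 members counted as lower before was so here. The member median was then 0.71 on the log2 scale. The largest excess over the trend was that of Pgam2 with 4.31, followed by Gpi1 with 3.16, Gapdh with 2.93, Tpi1 with 2.72, Pkm with 2.44 and Aldoa with 2.35. Other genes of the chain lay within 2-fold of it, among them Pfkm with 0.24, Hk1 with 0.71 and Pgk1 with 0.83, and the 1 member below was Pgam1 with -1.11. The glycogen synthesis genes lay within 2-fold of the trend, with -0.11 for Ugp2, -0.26 for Gbe1, -0.01 for Gyg and 0.81 for Gys1. The ratios of Ugp2 and Gbe1 were thus near the median of genes of the same GC content, and those of Gpi1, Gapdh and Tpi1 were above it.

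**Figure D4:**
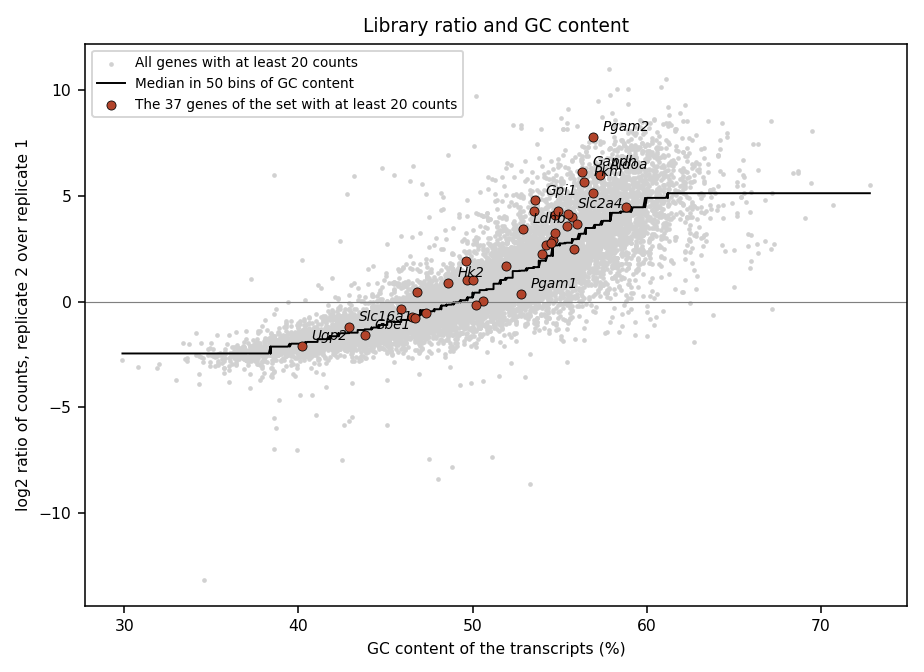
Log2 ratio of scaled counts, replicate 2 over replicate 1, against the GC content of the transcripts (%) for all genes with at least 20 counts (grey) and for the 37 members among them (red), with the median in 50 bins of GC content as a black line. The members climb with GC content like the grey points, Pgam2 lies 4.31 above the line and Pgam1 lies 1.11 below it (a value of -1.11).

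The genes around the pathway were read from lists of companions, each with its genes of highest mean nuclear TPM over both libraries. Their counts of genes at least 2-fold higher or lower stand beside 39.0% higher and 27.3% lower over all genes, and with so few genes to a list nothing is read from them. Of 7 genes of insulin-regulated GLUT4 traffic, all 7 reached 1 TPM in each library, 1 was at least 2-fold higher and 3 lower in replicate 2. Tbc1d4, the AKT substrate that holds GLUT4 inside the cell, had 80.5 nuclear TPM in replicate 2 and 213 in replicate 1, and Vamp2, a vesicle fusion protein, had 94.5 in replicate 2, against 83.1 in replicate 1. Among 8 other glucose carriers the highest by that mean were Slc2a8 with 16.5 nuclear TPM in replicate 2 and 0 in replicate 1 and Slc2a10 with 2.28 in replicate 2 and 1.25 in replicate 1. In replicate 1 alone the highest was Slc2a13, with 0.384 in replicate 2 and 2.22 in replicate 1. Of these carriers, 3 of 5 with enough counts were higher and 1 lower.

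Of 6 partners of lactate and pyruvate transport, Mpc1, Mpc2 and Bsg had the highest levels in both libraries, and the highest of the other 3, Slc16a7, had 5.99 nuclear TPM in replicate 2 and 20.6 in replicate 1. Mpc1 and Mpc2 form the mitochondrial pyruvate carrier. Mpc1 had 1008 nuclear TPM in replicate 2 and 2681 in replicate 1, and Mpc2 had 593 in replicate 2, against 2591 in replicate 1. Bsg, the chaperone that brings MCT1 to the membrane, had 1992 in replicate 2 and 833 in replicate 1. Of the 5 genes of this list with enough counts, 1 was higher and 4 were lower in replicate 2.

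Other glycogen genes had 4 higher and 2 lower in replicate 2 of 11 with enough counts. Pgm1, phosphoglucomutase, had 197 nuclear TPM in replicate 2, against 99.3 in replicate 1. The subunits that bring protein phosphatase 1 to glycogen had 2 higher and 1 lower of 6. Ppp1r3a, the muscle subunit, had 53.0 in replicate 2 and 380 in replicate 1, and Ppp1r3c had 154 in replicate 2, against 213 in replicate 1.

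Alternative isozymes of glycolysis had 1 higher and 1 lower of 4 with enough counts. Bpgm, which makes 2,3-bisphosphoglycerate, had 31.7 nuclear TPM in replicate 2 and 22.3 in replicate 1. Of gluconeogenesis genes, 4 of 5 were higher and 0 lower, among them Fbp2, the muscle fructose bisphosphatase, with 42.4 in replicate 2 and 15.4 in replicate 1, and G6pc3 with 42.7 in replicate 2 and 1.25 in replicate 1. Of pentose phosphate genes, 6 of 8 were higher and 1 lower. Taldo1, transaldolase, had 127 in replicate 2, against 5.68 in replicate 1. Tigar, which lay within 2-fold by scaled counts, had 41.3 in replicate 2 and 26.9 in replicate 1.

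RNA of other cells was present and its part in the member levels was not tested. The 6 red cell genes, most of them globins, added up to 5027 TPM in replicate 2, against 72.2 in replicate 1, with Slc4a1 at 0 in replicate 1. Endothelial markers summed to 292 in replicate 2, against 17.3 in replicate 1, fibroblast markers to 421 in replicate 2 and 191 in replicate 1, and macrophage and leukocyte markers to 145 in replicate 2, against 13.5 in replicate 1. Adipocyte markers summed to 44.3 in replicate 2 and 1.45 in replicate 1, with Cidec at 0 in replicate 1, and liver markers to 29.5 in replicate 2, against 4.08 in replicate 1. Neuron markers summed to 2.09 in replicate 2 and 0.170 in replicate 1, with Rbfox3 at 0 in both libraries and Tubb3, Dbh and Th at 0 in replicate 1. Skeletal muscle markers summed to 1096 TPM in replicate 2, against 1.51 in replicate 1, of which Ckm, a gene the heart also expresses, held 1080.0 in replicate 2 and 0.68 in replicate 1. Tnnt3 was at 0 in replicate 1. All these sums are plain TPM, of which nuclear genes made up 39.1% in replicate 2 and 7.22% in replicate 1. On the nuclear TPM scale the fibroblast sum went the other way, with 1076 in replicate 2 and 2641 in replicate 1. The liver sum there was 75.5 in replicate 2 and 56.5 in replicate 1. The other sums of this paragraph stayed higher in replicate 2 on that scale.

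Reads of some members may be shared with other genes. For 7 members there were near copies, defined by 95% identity along 50% or more of the copy. Exon bases of 17 members were shared with another gene, which lay on the opposite strand for 16. Beside Ldhd, the neighbour on the other strand held more counts than the member in replicate 2 for Pfkp, Slc2a12, Hk3 and Pklr. Pfkp had 882 counts in replicate 2, against 84 in replicate 1. Its neighbour Pitrm1 had 1136 in replicate 2 and 406 in replicate 1. Slc2a12 had 156 in replicate 2 and 97 in replicate 1, and its neighbour Tbpl1 had 203 in replicate 2 and 217 in replicate 1. Unc5a, beside Hk3, had 22 counts in replicate 2 and 0 in replicate 1. Hcn3, beside Pklr, had 4 in replicate 2 and 0 in replicate 1.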

How the data were processed

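Poly(A) RNA of 1 mouse heart was measured in 2 technical libraries. Per the file headers and descriptions, the gene and transcript tables refer to mm10 and to annotation M4; no source used here names the aligner or the quantifying program. The authors deposited expected counts, estimates that can be fractional, for each gene and transcript. TPM and FPKM, both corrected for length, are in the same deposited tables. The share of each transcript in its gene is a percent in the authors' transcript tables. Posterior means, also deposited, served in alternatives and beside transcript shares with few counts.

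Identifiers were matched without version to release M21 (GRCm38), which gave 42462 of 43346 genes a symbol, and transcript versions can differ between the releases. Coordinates are 1-based. Nuclear TPM leaves out 37 mitochondrial genes and 11 nuclear copies (blastn 2.17.0, 95% identity over 90% of the length). For count ratios, expected counts were rounded, genes with at least 20 counts were kept (13182), TMM sizes came from edgeR 4.0.16 (R 4.3.3) and 0.5 counts were added. DESeq2 1.42.0 size factors were an alternative. GC content had a value for 99.8% of these genes. Ratio intervals are exact 95% counting intervals, shares of counts have Wilson intervals, and a count of 0 allows 3 counts. The ratio step was tested on simulated counts. The trend step was tried there only with a straight GC trend, weaker than that of these data. It therefore does not show how well the trend was removed here. Python 3.11.15, numpy 2.4.6, scipy 1.17.1, pandas 2.3.3 and matplotlib 3.10.9 did the rest.

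With 1 animal and 1 group there is no test, and no p-value is given. Members and lists were chosen with earlier results of these data known. All members are accounted for. Full values are given for the leading gene of each step and for genes whose rank changed, transcripts are named where the leading models differ in protein, and each companion list is given with its 2 highest genes (Bsg, Gbe1 and the neighbours of overlapping genes were added to this after their values were seen). For 2 companion lists, 1 of those genes is not reported here.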

Additional observations from a re-analysis of the deposited data

How the results depend on the processing

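Of 119 alternatives over 16 results, 91 stayed within their limit (1.5 times for counts, 1 SD for shares) and 28 moved. These limits differ much between shares. With an SD of 60.2 for Pgam1, 25.3 for Slc2a4 and 21.4 for Hk2, none of their alternatives passed the limit, even 10.5% and 95.6% for Pgam1, so staying within it says nothing of their stability. A library taken alone always lies within the SD of 2 values. Which library had the higher share turned in 12 of 54 comparisons, for 5 of 9 leading genes. Pygm turned by expected counts (55.4% in replicate 2, 47.4% in replicate 1) and with replicate 2 lengths (66.1% in replicate 2, 58.6% in replicate 1), Pfkfb2 with 1 TPM added (71.4% in replicate 2, 64.6% in replicate 1) and with the GC profile of replicate 2 (75.4% in replicate 2, 69.3% in replicate 1), and Eno3, Pfkm and Slc16a1, nearly equal in both libraries, under at least 1 alternative. The mean Pgam1 share (53.0%) was 48.3% with 1 TPM added and 47.4% with the GC profile of replicate 2. Members with at least 1 TPM in both libraries were 25, and 15 at 5 TPM and 11 at 10 TPM. The median log2 ratio of all genes was 0.21 with TMM, 0.11 with DESeq2 size factors and 0.35 with total nuclear counts, and member counts were 25, 23 and 26 higher, each with 3 lower. With the GC trend removed, 15 members were 2-fold higher and 1 lower in replicate 2, against 25 and 3. The SDs of several shares are very small, so small moves pass them. Pfkm (87.3%) was 82.2% by posterior mean TPM, 86.5% by expected counts, 80.5% with 1 TPM added and 91.1% with the GC profile of replicate 2. Pfkfb2 (76.5%) was 72.3%, 85.8%, 68.0% and 72.4% in that order, and Eno3 (87.1%) was 82.4%, 86.2%, 82.1% and 85.9%. By posterior mean TPM and with 1 TPM added, Aldoa was 96.3% and 91.9%, Pkm 85.5% in both, and Slc16a1 97.2% and 96.4%. By expected counts Ldhb (69.7%) was 57.7% and Pygm (75.1%) 51.4%, and there replicate 1 was led by Ldha and Pygb. An alternative added after seeing the data, replicate 2 lengths in both libraries, gave 88.1% for Pfkm, 80.1% for Pfkfb2, 86.5% for Eno3 and 62.3% for Pygm. Without 1 library, members at 1 TPM ranged from 25 to 34, and the summed member share from 0.523% to 2.02%. The same leading transcript was found for 15 of 29 members by posterior shares, 18 of 29 with coding models only, 11 of 20 at 100 counts and 18 of 32 at any count.

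No paired analysis was possible because the 2 libraries are technical replicates of 1 animal and form 1 group. Nuclear genes had 12654724 counts in replicate 2 and 5028154 in replicate 1, where the transcript shares of Pkm and Gapdh rest on 108 and 176 counts.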
